A study of Pangasianodon hypophthalmus with 14 samples.

Results

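The vessel genes described here are the receptors and the junction protein that mark endothelium, the cell layer that lines every blood and lymph vessel. They were followed in whole tra catfish (Pangasianodon hypophthalmus, a fish that comes to breathe air with its swim bladder as a larva) over the first days after fertilization, at 2, 4, 6 and 8 days post fertilization (dpf) and then daily at 9, 10 and 11 dpf. The genes were chosen by symbol in the deposited count table. Of the 8 symbols sought, 6 were found among 21656 genes: kdr, flt1, flt4, tek, tie1 and cdh5. All 6 passed the filter on low counts that left 19310 genes for testing. A row identified as egfl7 by its gene ID in the RefSeq table is given separately, and etv2 was not analysed here. Each stage had 2 libraries, which makes 14, and each replicate was a pool of 4 whole fish. The labels give no strain, sex or treatment for any stage, and age is the one difference they name. In these bulk samples, fewer endothelial cells and less RNA per endothelial cell cannot be told apart.

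Endothelial cells are built and kept by a pair of receptor systems. Vascular endothelial growth factors (VEGFs) act through receptors encoded by kdr, flt1 and flt4 and drive the growth of new vessels, while angiopoietins act through the Tie receptors encoded by tek and tie1, which steady and remodel vessels already laid down. The cells are held to each other by VE-cadherin, the product of cdh5. In a fish that gulps air, the wall of the swim bladder has to gain a capillary bed of its own, and gill, skin and yolk sac vessels serve gas exchange before that.

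Library totals lay between 4112131 and 11609823 counts, and the 6 genes together took 0.0136% to 0.0243% of them. Their single counts ran between 54 and 497 per library, for which counting error alone is 13.6% and 4.49%. The limit set by a count of 0, taken as 3 counts, was 0.258 to 0.73 CPM (the count scaled to the library total) per library, so each of the 6 genes was detected in all 14 libraries. The replicates did not differ equally at all stages. The chi-square per gene between the libraries of a stage, near 1 when counting alone separates them, was 19.9 at 2 dpf and 31.6 at 4 dpf, 3.84 at 8 dpf and 4.03 at 10 dpf, then only 1.14, 1.15 and 1.3 at 6, 9 and 11 dpf. The study's methods say that equal RNA of both pools went into the libraries of a stage, so the p-values below measure a spread that may be technical. The spread of a gene was estimated over all 14 libraries together. The p-values of steps with 2 or 4 dpf therefore draw in part on the closer pairs of other stages. For the 6 genes, 5 of 42 comparisons between replicates had an exact binomial p under 0.05 and 0 did after adjustment over the 42. Levels below are CPM scaled by edgeR's trimmed mean of M values (TMM), and they follow a gene across stages only, since without transcript lengths a level cannot be compared between genes.

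Most symbols of the wider endothelial marker lists could be matched. Of 38 symbols sought for endothelial surface and junction proteins, 22 had a row and 21 were tested. Of 27 symbols sought for endothelial transcription factors, 19 had a row and 18 were tested.

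Among the VEGF receptor genes, kdr and flt1 were lowest at 2 and 4 dpf and flt4 at 4 dpf. In mammals kdr encodes the main signalling receptor of VEGF in endothelium. It had 26.8 and 29.1 CPM at 2 dpf, 27.4 and 31.6 at 4 dpf, 34.4 and 30.2 at 6 dpf, 36.3 and 35.3 at 8 dpf, 30.9 and 32.9 at 9 dpf, 38.7 and 34.9 at 10 dpf, then 47.6 and 46.4 at 11 dpf. Both libraries of 11 dpf were above all 12 others. Below them the stage means followed the order 2, 4, 9, 6, 8 and 10 dpf, and the libraries of 2 and 4, of 4 and 9, of 9 and 6 and of 8 and 10 dpf overlapped. kdr averaged 47 ± 0.813 CPM at 11 dpf and 28 ± 1.62 CPM at 2 dpf (SD, n = 2 each), a log2 difference of 0.75 (SE 0.134, adjusted p = 0.000264 by the edgeR quasi-likelihood test, adjusted after Benjamini and Hochberg).

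flt1 encodes a VEGF receptor that binds the ligand tightly and signals weakly, and so limits how much VEGF reaches the kdr product. It had 9.45 and 15.1 CPM at 2 dpf, 13.9 and 11.4 at 4 dpf, 13.4 and 17 at 6 dpf, 22.7 and 17.9 at 8 dpf, 17 and 16.2 at 9 dpf, 20.5 and 20.9 at 10 dpf, then 23.2 and 24.2 at 11 dpf. The 11 dpf libraries were again above all others, by a small margin over 1 library of 8 dpf, and the libraries of 2, 4 and 6 dpf overlapped. The 2 dpf replicates were far apart relative to their mean of 12.3 ± 4.02 CPM (SD, n = 2). flt1 had the largest span among the VEGF receptors, 1.93-fold between its highest and lowest stage means, against 1.68-fold for kdr. The difference between 11 and 2 dpf was 0.94 on the log2 scale (SE 0.202, adjusted p = 0.00127, quasi-likelihood test). Across 22 alternative settings it ran between 0.64 and 1.32, and it reached the larger size when replicate 2 of 2 dpf was left out.

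flt4 encodes the receptor of VEGF-C and VEGF-D and marks veins and lymphatic vessels. It had 31 and 28.7 CPM at 2 dpf, 28.6 and 19.9 at 4 dpf, 33.9 and 29.9 at 6 dpf, 32.2 and 36 at 8 dpf, 28.4 and 24 at 9 dpf, 41.2 and 30.6 at 10 dpf, then 34.6 and 39.4 at 11 dpf. It had the smallest span of the 6 genes, 1.52-fold between stage means, and 5 of the 6 neighbouring pairs in its order of stages overlapped. None of the 8 comparisons made between stages gave flt4 an adjusted p under 0.05, and its lowest and highest stages, 4 and 11 dpf, were not compared. In the alternative settings it passed at 4 against 2 dpf in 2 of 22, with library totals and without replicate 1 of 4 dpf, and in 1 each at 6 against 4, 9 against 8, 11 against 6 and 11 against 2 dpf. Its difference between 11 and 2 dpf was 0.31, with a 95% interval of -0.06 to 0.68 on the log2 scale.

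**Figure D1:**
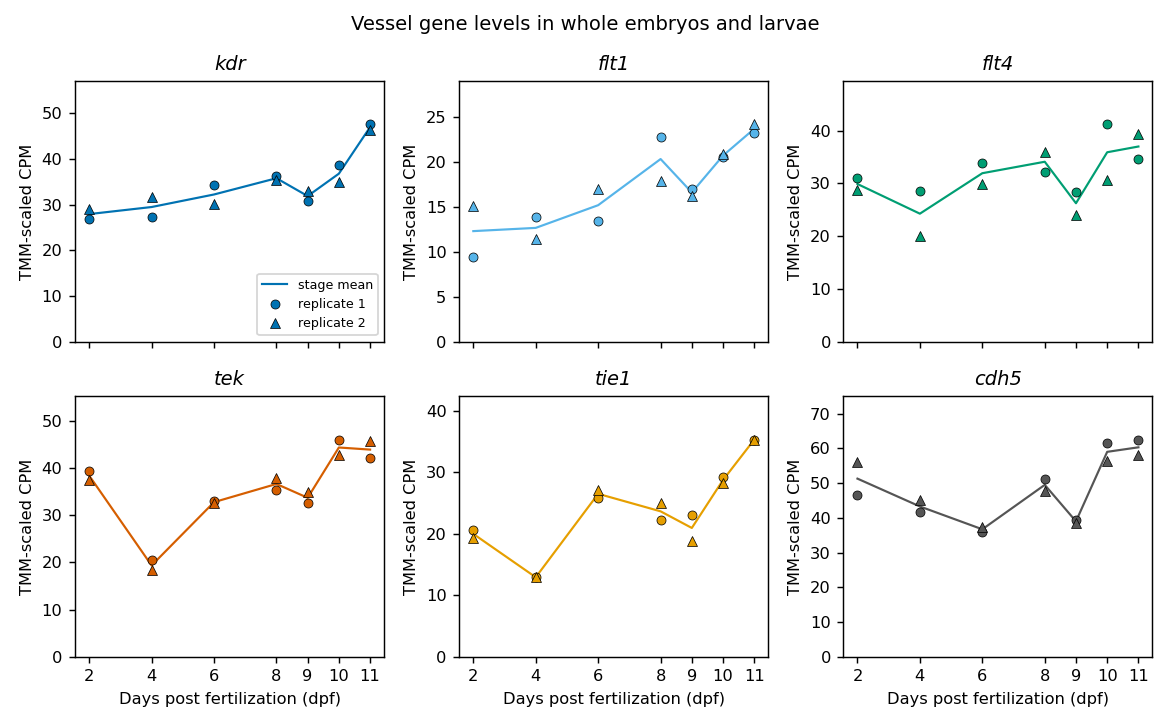
Level of each of the 6 vessel genes in TMM-scaled CPM (vertical axes, starting at 0) against age in dpf. Circles and triangles are replicates 1 and 2 and the line joins stage means, with tek and tie1 lowest at 4 dpf and kdr, flt1, flt4, tie1 and cdh5 having their highest mean at 11 dpf.

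The Tie receptor genes had a trough at 4 dpf. tek encodes Tie2, the receptor of the angiopoietins. It had 39.4 and 37.4 CPM at 2 dpf, 20.4 and 18.3 at 4 dpf, 33 and 32.5 at 6 dpf, 35.4 and 37.8 at 8 dpf, 32.5 and 34.9 at 9 dpf, 46 and 42.6 at 10 dpf, then 42.1 and 45.7 at 11 dpf. The 4 dpf libraries were both under every other library, and the libraries of 10 and 11 dpf, which overlapped each other, were above all the rest. The highest stage mean was 2.29-fold the lowest.

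tie1 encodes a second Tie receptor, which binds no angiopoietin by itself and tunes Tie2. It had 20.6 and 19.4 CPM at 2 dpf, 13 and 12.9 at 4 dpf, 25.8 and 27.2 at 6 dpf, 22.3 and 25 at 8 dpf, 23.1 and 18.8 at 9 dpf, 29.2 and 28.3 at 10 dpf, then 35.3 in both libraries of 11 dpf. Here too the 4 dpf libraries lay under all others and those of 11 dpf above all others. The span between stage means, 2.73-fold, was the widest of the 6 genes, and only the libraries of 2 and 9 and of 9 and 8 dpf overlapped among neighbours.

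cdh5 encodes VE-cadherin, the adhesion protein of endothelial junctions. It had 46.4 and 56.1 CPM at 2 dpf, 41.5 and 45 at 4 dpf, 36 and 37.4 at 6 dpf, 51.1 and 47.8 at 8 dpf, 39.4 and 38.5 at 9 dpf, 61.6 and 56.3 at 10 dpf, then 62.5 and 58 at 11 dpf. Its lowest stage was therefore 6 dpf, not 4 dpf, with a second low at 9 dpf, and the libraries of 10 and 11 dpf overlapped at the top. The span was 1.64-fold.

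The row identified as egfl7, whose product is secreted by endothelium into the vessel wall, ranged between 5.19 and 10.7 CPM over the 14 libraries with 34 to 103 counts. Its stage means differed by 1.46-fold and the test over all stages gave an adjusted p of 0.532. Its differences in the 8 comparisons lay between -0.33 and 0.39 on the log2 scale, and the interval of the difference between 11 and 2 dpf ran between -0.41 and 0.74. kdrl, which in zebrafish is a separate VEGF receptor gene beside kdr and is the one widely used as an endothelial marker, had 39.1 CPM in its lowest library (4 dpf) and 81.4 CPM in its highest (11 dpf). Its stage means spanned 1.84-fold, with the 11 dpf libraries at 81.4 and 78.6 CPM above the other 12. Reads that fit both kdr and kdrl could have been split or lost between them in the authors' counting, and the ratio of kdr to kdrl counts lay between 0.432 and 0.808 over the libraries, with both ends at 2 and 4 dpf.

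The first question was whether any of the 6 genes changed with age at all. An F test over all 7 stages gave an adjusted p under 0.05 for 6 of 6, between 1.21e-05 for tie1 and 0.0367 for flt4, by the edgeR quasi-likelihood test. Of all 19310 genes, 75.3% passed the same test, so a count of 6 of 6 is near the background. The comparisons between single stages separate them further. Below, a gene is named as called when its adjusted p was under 0.05 and its log2 fold change beyond 1 in size, and a gene is said to have risen or fallen at any size when only the adjusted p was met.

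Between 4 and 2 dpf, the days in which the yolk feeds the larva, the Tie receptor genes fell and none of the VEGF receptor genes had an adjusted p under 0.05. tek averaged 19.4 ± 1.49 CPM at 4 dpf and 38.4 ± 1.39 CPM at 2 dpf (SD, n = 2 each), a log2 difference of -0.996 (SE 0.139, adjusted p = 2.57e-05). tie1 averaged 12.9 ± 0.0441 CPM at 4 dpf and 20 ± 0.878 CPM at 2 dpf, a log2 difference of -0.63 (SE 0.159, adjusted p = 0.00437). The groups of both genes did not overlap. The differences were -0.33 for flt4, -0.24 for cdh5, 0.02 for flt1 and 0.09 for kdr on the log2 scale. Each had an adjusted p of 0.161 or more in the quasi-likelihood test. The interval of the kdr difference ran between -0.21 and 0.38, so a change of the size measured for tek lies outside it.

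At 4 against 2 dpf, 0 of the 6 genes were called, against 19.8% of all genes (13.8% higher and 5.99% lower), and 2 fell at any size, against 20.4% of all genes. The median log2 fold change was -0.28 for the 6 genes and 0.00 for all genes tested. tek stood at the edge of the fold threshold: it was called at -1.25 with library totals in place of TMM, and also when no filter was applied and when replicate 2 of 2 dpf or replicate 1 of 4 dpf was left out. tie1 had an adjusted p of 0.115 when only the 4 libraries of these stages were fitted. The scaling matters at this step because library totals alone shifted the median of all genes to -0.25, and with them the log2 differences of kdr and flt1 became -0.17 and -0.23.

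The fall of the Tie genes relative to kdr does not depend on scaling, because a ratio of counts within a library is free of it. The ratio of tek to kdr counts was 0.746 and 0.578 at 4 dpf, against 1.47 and 1.29 at 2 dpf, and between 0.885 and 1.22 in the 10 libraries of 6 to 11 dpf. The ratio of tie1 to kdr counts was 0.474 and 0.408 at 4 dpf, against 0.768 and 0.665 at 2 dpf. No library of another stage was as low in either ratio. The ratio of tie1 to tek counts was 0.635 and 0.705 at 4 dpf, against 0.523 and 0.518 at 2 dpf, the lowest of any stage, and it was 0.839 and 0.773 at 11 dpf. No test was run on these ratios. They are set against kdr, which had a log2 difference of 0.09 at 4 against 2 dpf, while flt4 had -0.33 and kdrl -0.37. The ratio of tek to cdh5 counts was also lowest at 4 dpf, at 0.491 and 0.407, against 0.848 and 0.667 at 2 dpf. Ratios of the Tie genes to flt4 or kdrl were not computed. The fall is therefore shown relative to kdr and cdh5 for tek, and relative to kdr only for tie1. Reads split between kdr and kdrl would also enter any ratio to kdr.

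**Figure D2:**
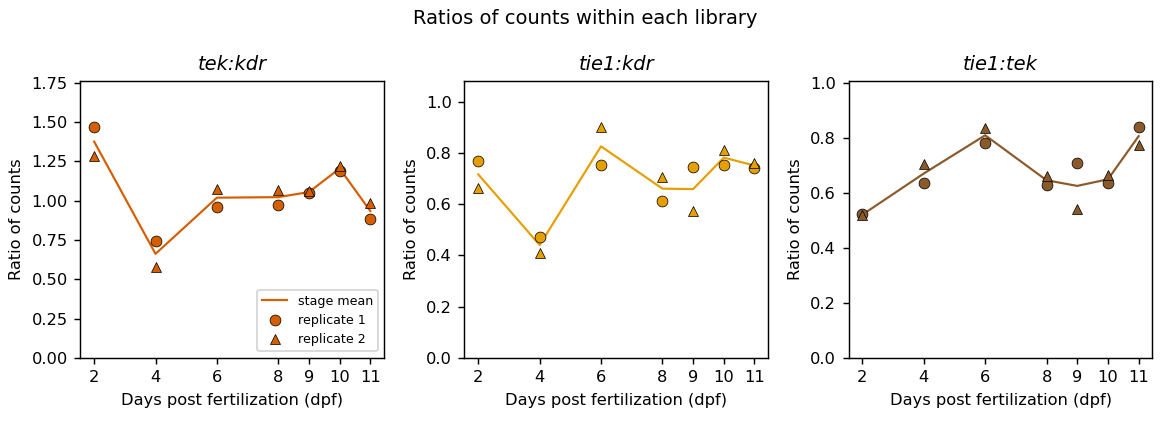
Ratios of counts within each library for tek over kdr, tie1 over kdr and tie1 over tek (vertical axes, starting at 0) against age in dpf, with replicates as circles and triangles and stage means joined by a line. The 4 dpf libraries are the lowest of all in the first and second panels, at 0.746 and 0.578 for tek over kdr.

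Between 6 and 4 dpf, as the yolk runs out, the Tie receptor genes rose again. tie1 averaged 26.5 ± 0.963 CPM at 6 dpf and 12.9 ± 0.0441 CPM at 4 dpf (SD, n = 2 each), a log2 difference of 1.03 (SE 0.154, adjusted p = 0.000103). tek averaged 32.8 ± 0.388 CPM at 6 dpf and 19.4 ± 1.49 CPM at 4 dpf, a difference of 0.77 (SE 0.139, adjusted p = 0.000567). flt4 had a difference of 0.42, flt1 of 0.27, kdr of 0.12 and cdh5 of -0.24, with no adjusted p under 0.05. tie1 was the 1 gene called, against 11.3% of all genes, and tie1 and tek were the 2 that rose at any size, against 14.2% of all genes. The median was 0.35 for the 6 genes and -0.02 for all genes. The tie1 call is at the threshold of fold: the difference was 0.99 with RLE scaling, and it also missed the threshold with DESeq2 and without replicate 2 of 6 dpf, while its adjusted p stayed at or under 0.021 in all settings.

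The steps between 6 and 11 dpf were smaller. At 8 against 6 dpf, 0 of the 6 genes were called, against 5.74% of all genes, and 1 rose at any size, against 11.8%. That gene was cdh5, with 49.5 ± 2.31 CPM at 8 dpf and 36.7 ± 1.01 CPM at 6 dpf (SD, n = 2 each), a log2 difference of 0.43 (SE 0.133, adjusted p = 0.0293). flt1 had a difference of 0.41 with an adjusted p of 0.133. cdh5 no longer passed when any library of 6 or 8 dpf was left out, with library totals or with summed pairs, and its highest adjusted p in any setting was 0.279. With library totals the differences of kdr, flt4 and tek at this step became -0.062, -0.11 and -0.048.

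At 9 against 8 dpf all 6 genes had a lower mean at 9 dpf, with log2 differences between -0.38 for flt4 and -0.12 for tek, the last of which was 0.00221 with library totals. The median was -0.23 for the 6 genes and -0.05 for all genes. The share of all genes in each direction was not counted, here or for the 6 of 6 at 10 against 9 and 11 against 6 dpf. None of the 6 was called at 9 against 8 dpf, against 1.28% of all genes, and none passed the adjusted p at any size, against 4.42%. At an unadjusted p under 0.05 the count in edgeR's test was 2. The share of all genes at that threshold was not counted, so this 2 has no background to be read against. At 10 against 9 dpf all 6 genes had a higher mean at 10 dpf, in all 22 alternative settings too, and the median log2 difference was 0.42, against 0.02 for all genes. None was called, against 1.01% of all genes. cdh5 was the 1 gene that rose at any size, against 1.41% of all genes, with 59 ± 3.77 CPM at 10 dpf and 39 ± 0.629 CPM at 9 dpf (SD, n = 2 each). Its log2 difference was 0.60 (SE 0.135, adjusted p = 0.0284), and it kept an adjusted p under 0.05 in 10 of the 22 alternative settings. The differences were 0.45 for tie1 and flt4, 0.40 for tek, 0.32 for flt1 and 0.21 for kdr. At 11 against 10 dpf none was called, against 1.14% of all genes, and none passed the adjusted p at any size, against 3.6%. There were 2 at an unadjusted p under 0.05 in edgeR's test, again without a share of all genes. The largest differences there were 0.35 for kdr and 0.30 for tie1.

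Set over a longer interval, these steps added up. At 11 against 6 dpf, an interval over which the larva takes up air-breathing, all 6 genes had a higher mean at 11 dpf and 5 rose at any size, against 14.4% of all genes, while 0 were called, against 9.27%. The log2 differences were 0.72 for cdh5 (SE 0.133, adjusted p = 0.000913), 0.65 for flt1 (SE 0.194, adjusted p = 0.0184) and 0.54 for kdr (SE 0.131, adjusted p = 0.00557). Those of tek and tie1 were both 0.42, with adjusted p of 0.019 and 0.0272. flt4 had a difference of 0.21 with an adjusted p of 0.388. The median was 0.48 for the 6 genes and -0.03 for all genes. Without a library of 6 or 11 dpf, 1 or 2 of the 6 genes passed, and with the pairs of 6, 9 and 11 dpf summed into 1 library each none did, with adjusted p of 0.119 for cdh5, 0.208 for kdr and 0.227 for flt1. The direction of all 6 held in all 22 alternatives.

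At 11 against 2 dpf the VEGF receptor genes kdr and flt1 and the Tie gene tie1 rose at any size, 3 of 6 against 20.5% of all genes, and 0 were called, against 20.8%. tie1 averaged 35.3 ± 0.0154 CPM at 11 dpf and 20 ± 0.878 CPM at 2 dpf, a log2 difference of 0.82 (SE 0.139, adjusted p = 0.000161). tek, which shares the trough of tie1, had a difference of 0.19 with an interval of -0.07 to 0.46, and cdh5 one of 0.23 with an interval of -0.05 to 0.51. Those of tek and cdh5 turned to -0.089 and -0.045 with library totals. kdr, flt1 and tie1 had an adjusted p under 0.05 in all 22 alternative settings too.

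**Figure D3:**
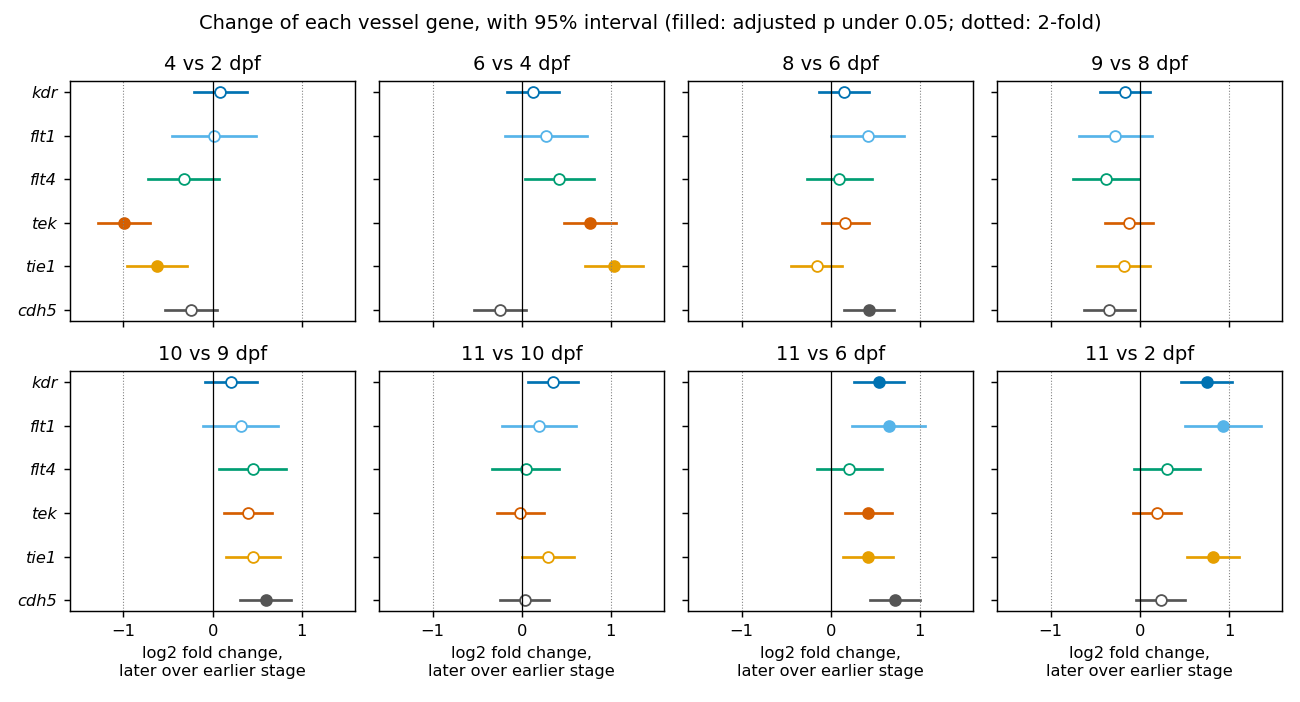
Log2 fold change of each vessel gene, later over earlier stage, in the 8 comparisons (horizontal axes), with 95% intervals from the fit of all 14 libraries. Filled points had an adjusted p under 0.05, with tek at -0.996 and tie1 at -0.63 for 4 against 2 dpf and 5 of the 6 genes filled for 11 against 6 dpf.

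The ligand genes were read beside their receptors. Among 6 VEGF family genes with a row, none had an adjusted p under 0.05 at 4 against 2 dpf. Of these 6, 5 had a higher mean at 4 dpf, with a median log2 difference of 0.70, against 0.00 for all genes. At 11 against 2 dpf 3 of 6 were called higher, against 12.6% of all genes. vegfa, the principal ligand of the kdr and flt1 products, had 16 and 15.1 CPM at 11 dpf, against 6.77 and 5.27 CPM at 2 dpf, a log2 difference of 1.37 (SE 0.195, adjusted p = 2.91e-05) that was called in all 22 alternatives. vegfd, a ligand of the flt4 product in mammals, had a difference of 1.14 with an adjusted p of 0.00487, and the row identified as vegfaa one of 1.02 with an adjusted p of 0.0191. The vegfaa call was lost in 7 of 22 alternatives, when any library of 2 or 11 dpf was left out, with DESeq2, with library totals and with summed pairs. The vegfd call was lost in 2, without replicate 1 of 2 dpf (adjusted p = 0.0588) and with library totals, and in both of these 1 gene of the list was called. All were at low counts. vegfa did not move with the 6 vessel genes at every step. Its mean was 8.45 CPM at 8 dpf, 12.1 CPM at 9 dpf and 9.37 CPM at 10 dpf. All 6 vessel genes were lower at 9 than at 8 dpf and higher at 10 than at 9 dpf. No VEGF family gene had an adjusted p under 0.05 in edgeR's test at either step.

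All 3 angiopoietin rows had an adjusted p under 0.05 at 4 against 2 dpf in edgeR's test, in different directions. Of these, 1 was called higher, against 13.8% of all genes, and 2 fell at any size, against 20.4%. angpt2, which opposes or partly replaces angpt1 at Tie2, had 6.48 and 4.95 CPM at 4 dpf, against 1.98 and 2.9 CPM at 2 dpf, a log2 difference of 1.19 (SE 0.336, adjusted p = 0.00899). angpt1, the activating ligand of Tie2, had 7.44 and 8.1 CPM at 4 dpf, against 12.1 and 15.8 CPM at 2 dpf, a difference of -0.84 (SE 0.244, adjusted p = 0.0106). A second row identified as angpt2b had a difference of -0.83 (adjusted p = 0.0327). The angpt2 call was lost without replicate 1 of 2 dpf (adjusted p = 0.0741) and with library totals. angpt1 and angpt2b did not reach the fold threshold and are given because the list is short.

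The co-receptors of VEGF, the neuropilins, also fell at 4 against 2 dpf. nrp1 had 51.4 and 39.3 CPM at 4 dpf, against 109 and 118 CPM at 2 dpf, a log2 difference of -1.34 (SE 0.148, adjusted p = 2.43e-06). nrp2 had a difference of -1.18 (adjusted p = 1.83e-05, and -0.95 without replicate 2 of 4 dpf, where it missed the fold threshold) and the row identified as nrp2b one of -1.16 (adjusted p = 8.71e-06). Neuropilins are also widely used by neurons, and whole fish do not separate these sources. ptprb encodes VE-PTP, the endothelial phosphatase that holds Tie2 in check, and it had 95.3 and 100 CPM at 11 dpf, against 47.2 and 45 CPM at 6 dpf and 30.3 and 28.8 CPM at 2 dpf. Its log2 difference was 1.73 between 11 and 2 dpf (SE 0.159, adjusted p = 2.22e-07) and 1.09 between 11 and 6 dpf (adjusted p = 9.94e-05, and 0.0545 with the pairs of 6, 9 and 11 dpf summed).

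Among 18 endothelial transcription factor genes tested, 2 were called lower at 4 against 2 dpf, against 5.99% of all genes, and 3 were called higher at 6 against 4 dpf, against 4.81%. Over the alternatives 1 to 6 were called at 4 against 2 dpf, 6 with library totals and 4 without replicate 1 of 4 dpf. At 6 against 4 dpf the range was 1 to 5, with 5 without replicate 1 of 4 dpf. 13 of 18 had a lower mean at 4 dpf than at 2 dpf, and 17 of 18 a higher mean at 6 dpf than at 4 dpf. The list medians were -0.45 and 0.64 on the log2 scale, against 0.00 and -0.02 for all genes. The share of all genes in each direction was not counted. nr2f2, a determinant of vein identity that other tissues also use, had 9.12 and 10 CPM at 4 dpf, against 35.6 and 31.5 CPM at 2 dpf, a log2 difference of -1.79 (SE 0.181, adjusted p = 8.58e-07). ets1, an ETS factor of endothelium and blood, had 10.6 and 10.2 CPM at 4 dpf, against 22.6 and 20 CPM at 2 dpf, and 22.5 and 23.9 CPM at 6 dpf. Its differences were -1.04 (adjusted p = 0.000155, a call that was lost in 4 of 22 alternatives) and 1.16 (adjusted p = 9.47e-05). ets1 was thus lowest at 4 dpf, the stage at which tek and tie1 were lowest. This low was not particular to ets1. nr2f2, tal1, fli1, erg and mef2c of the same list, and nrp1 and nrp2, also had their lowest mean at 4 dpf. Of these, fli1, erg and mef2c are named after their values were seen. No link between these genes and the Tie genes was tested. tal1, which specifies blood and endothelial precursors, rose at 6 against 4 dpf by 1.67 on the log2 scale (SE 0.345, adjusted p = 0.00164). It was at only 1.2 and 2.7 CPM at 4 dpf, and its difference ran between 1.31 and 2.48 over the alternatives. sox18 and sox17, SoxF factors of arteries and lymphatics, differed by 2.76 (adjusted p = 0.00191) and 1.79 (adjusted p = 0.00163) at 11 against 2 dpf, but both were low at 2 dpf. sox18 was at 0.141 and 0.922 CPM there, the first of them under the limit set by 3 counts, and sox17 at 1.27 and 0.659 CPM. Over the alternatives the sox18 difference ran between 2.02 and 4.59, the lower end without replicate 1 of 2 dpf, and that of sox17 between 1.38 and 2.31. gata2a differed by 1.19 at 8 against 6 dpf (adjusted p = 0.00674), a call that was lost in 4 of 21 alternatives.

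Of 21 endothelial surface and junction genes tested, 4 were called lower at 4 against 2 dpf, against 5.99% of all genes, and 1 higher, against 13.8%. At 6 against 4 dpf 2 were called higher, against 4.81% of all genes. Leaving out replicate 1 of 2 dpf or replicate 1 of 4 dpf left 3 of the list called at 4 against 2 dpf, and without replicate 1 of 6 dpf 1 was called at 6 against 4 dpf. robo4, an endothelial guidance receptor that steadies vessels, had 9.6 and 7.35 CPM at 4 dpf, against 29.6 and 21.9 CPM at 2 dpf, a log2 difference of -1.63 (SE 0.204, adjusted p = 8.47e-06). The row identified as plvapa, a protein of the diaphragms that close endothelial pores, was higher at 4 dpf. It had 17.5 and 21.4 CPM at 4 dpf, against 3.39 and 4.08 CPM at 2 dpf, a difference of 2.39 (SE 0.225, adjusted p = 3.64e-07). cldn5, a tight junction gene of brain vessels and of other barriers, differed by -1.14 at 4 against 2 dpf (adjusted p = 0.00172), and the call was lost without replicate 1 of 2 dpf, at -0.80, and without replicate 1 of 4 dpf. vwf, the clotting factor stored in endothelial cells, had 58.7 and 51.6 CPM at 11 dpf, against 12 and 19.9 CPM at 2 dpf, a difference of 1.78 (SE 0.177, adjusted p = 5.43e-07). The list did not rise as a whole over that interval. Of its 21 genes, 11 had a higher mean and 10 a lower one, with a median of 0.05. In it 3 were called higher, against 12.6% of all genes, and 2 lower, against 8.22%. Over the same interval cldn5 differed by -1.26 (adjusted p = 0.000604) and robo4 by -0.72 (adjusted p = 0.00384), the second short of the fold threshold. she differed by 1.34 at 6 against 4 dpf (adjusted p = 0.00884, and 0.0632 without replicate 1 of 6 dpf), and the junction gene jam2b by -1.39 at 11 against 2 dpf (adjusted p = 0.00163).

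The Notch and artery genes had only lower means at 4 than at 2 dpf, 8 of 8, with 4 of 8 called lower, against 5.99% of all genes. Their median was -0.99, against 0.00 for all genes. Without replicate 2 of 4 dpf 2 were called, since notch1a and unc5b then missed the fold threshold, and cxcr4 and cxcr4a missed their calls without replicate 1 of 4 dpf. The called rows were notch1a (-1.22, adjusted p = 2.55e-05), cxcr4 (-1.21, adjusted p = 0.00183), cxcr4a (-1.23, adjusted p = 0.0131, and 0.0992 without replicate 2 of 2 dpf) and unc5b (-1.09, adjusted p = 0.000987). All of these are used in the nervous system as well. At 6 against 4 dpf none of the 8 had an adjusted p under 0.05 in edgeR's test, and their median was 0.04. At 11 against 2 dpf the same 4 were again called lower, against 8.22% of all genes, and 2 to 4 were called over the alternatives. They were cxcr4 (-1.67, adjusted p = 0.000126), cxcr4a (-1.24, adjusted p = 0.00951), notch1a (-1.19, adjusted p = 2.33e-05) and unc5b (-1.09, adjusted p = 0.000634). The median there was -0.80, against -0.06 for all genes, with 2 of 8 higher. Among 8 scavenger and lymphatic genes, lyve1a, a hyaluronan receptor of lymphatic and scavenging endothelium and of some macrophages, had 16.1 and 33.3 CPM at 4 dpf, against 6.35 and 8.03 CPM at 2 dpf. Its difference was 1.82 (SE 0.27, adjusted p = 4.86e-05), and at 6 against 4 dpf it was -1.27 (adjusted p = 0.00116, and -0.59 without replicate 2 of 4 dpf). stab2, a scavenger receptor of the same cells, differed by -1.20 at 11 against 2 dpf (adjusted p = 6.13e-05, and -0.94 without replicate 2 of 2 dpf). The list did not rise as a whole at 4 against 2 dpf, where 4 of 8 had a higher mean and 4 a lower one. Only lyve1a was called higher, against 13.8% of all genes, and 3 fell at any size, against 20.4%. The 3 were stab2 (-0.98, adjusted p = 0.000425), adamts3 (-0.73, adjusted p = 0.0011) and svep1 (-0.67, adjusted p = 0.0126), the last 2 named after their values were seen.

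**Figure D4:**
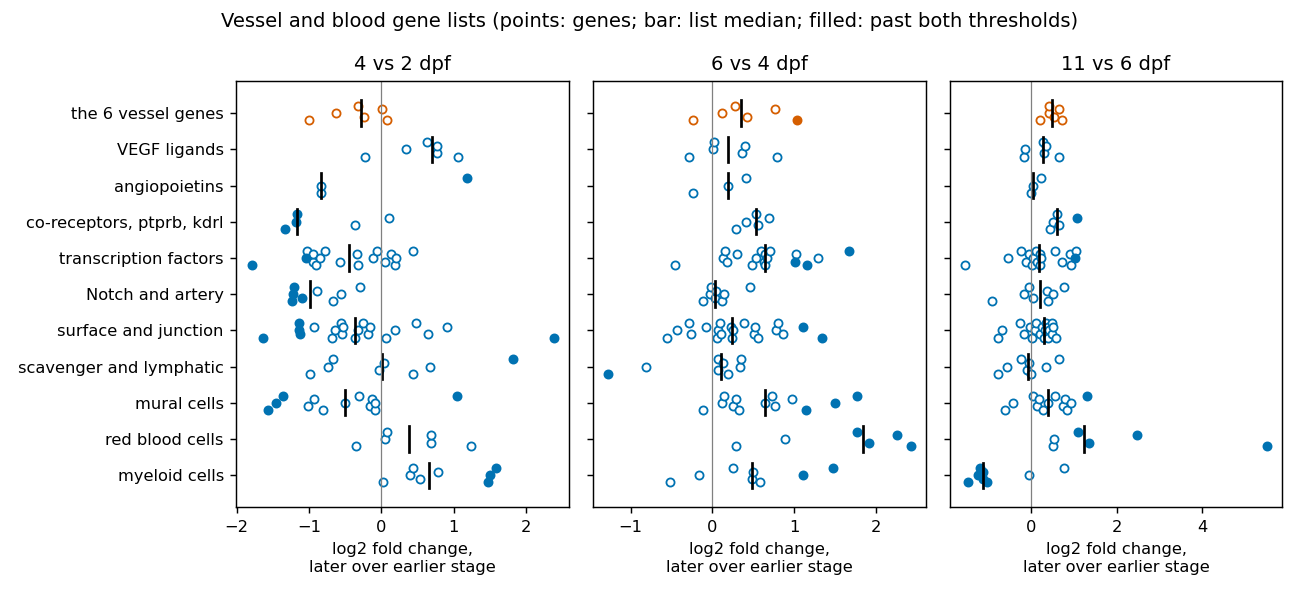
Log2 fold change, later over earlier stage, of each tested gene in the vessel and blood gene lists for 4 against 2 dpf, 6 against 4 dpf and 11 against 6 dpf (horizontal axes). Each point is a gene, the bar is the list median and filled points are called. The median of the 6 vessel genes is -0.28, 0.35 and 0.48 across the panels.

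Genes of other cells of the vessel and of the blood moved over the same stages. Summed over the 6 vessel genes, the level was 174 and 186 CPM at 2 dpf, 145 and 139 at 4 dpf, 177 and 174 at 6 dpf, 200 in both libraries of 8 dpf, 171 and 165 at 9 dpf, 237 and 214 at 10 dpf, then 245 and 249 at 11 dpf. The 13 genes that mark mural cells, the smooth muscle cells and pericytes around vessels, summed to 847 and 1128 CPM at 2 dpf, 803 and 655 at 4 dpf, 1036 and 1017 at 6 dpf, 1347 and 1296 at 8 dpf, 1219 and 1215 at 9 dpf, 1618 and 1736 at 10 dpf, then 1763 and 1711 at 11 dpf. Both sums had their low at 4 dpf, a dip at 9 dpf and their highest means at 11 dpf. The mural dip at 9 dpf belongs to the sum and not to the list. Of the 13 genes, 8 had a higher mean at 9 than at 8 dpf and 5 a lower one, with a median log2 difference of 0.06. At 4 against 2 dpf 12 of 13 had a lower mean, but tagln was called higher (1.05, adjusted p = 3.26e-05 in edgeR's test). From 4 dpf on the mural sum is led by muscle genes that smooth muscle outside vessels uses as well. At 2 dpf it was led by cspg4 and the row identified as notch3, with means of 264 and 221 CPM. These were 104 and 116 CPM at 4 dpf, while acta2 averaged 152 CPM at 2 dpf and 144 CPM at 4 dpf. The 3 genes are named here after their values were seen.

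The 6 red blood cell genes summed to 170 and 256 CPM at 2 dpf, 243 and 125 at 4 dpf, 325 and 321 at 6 dpf, 531 and 608 at 8 dpf, 595 and 609 at 9 dpf, 650 and 844 at 10 dpf, then 857 and 901 at 11 dpf. sptb, a spectrin gene that other tissues use as well, had the largest mean of the list in every stage up to 10 dpf. Its libraries had 132 and 220 CPM at 2 dpf and 185 and 94.6 CPM at 4 dpf. The sptb mean then went from 170 CPM (6 dpf) to 327 CPM (8 dpf), so the sum over these stages is largely that of sptb. Only the 11 dpf means put another gene first, the globin row hbae5 with 364 CPM, against 243 CPM for sptb. sptb is named here after its values were seen. 4 of 6 genes were called higher at 6 against 4 dpf, against 4.81% of all genes, and 4 of 6 at 11 against 6 dpf, against 4.24%. Without replicate 2 of 4 dpf or replicate 1 of 6 dpf the first count was 2, and the globin rows hbae5 and hbba2 had adjusted p of 0.41 and 0.379 when the 4 dpf library was left out. Summing each pair at 6, 9 and 11 dpf made both counts 2, and alas2 and epb41b had adjusted p of 0.0636 and 0.0626 at 11 against 6 dpf. alas2, the haem synthesis enzyme of red cells, differed by 2.26 (adjusted p = 1.31e-05) and slc4a1a, their anion exchanger, by 1.91 (adjusted p = 6.04e-06) at 6 against 4 dpf. The globin row hbae5 had 340 and 388 CPM at 11 dpf, against 7.83 and 8.02 CPM at 6 dpf, a difference of 5.52 (adjusted p = 6.74e-08). The 8 myeloid genes summed to 97.7 and 157 CPM at 4 dpf, against 69.7 and 74 CPM at 2 dpf, and peaked at 171 and 162 CPM at 6 dpf. At 11 against 6 dpf 6 of 8 were called lower, against 5.04% of all genes, csf1r by -1.48 (adjusted p = 0.000155). Summing the same pairs left 2 of these calls, those of csf1r and coro1a. The list did not fall as a whole: cebpa rose by 0.77 at 11 against 6 dpf (adjusted p = 0.00562), short of the fold threshold. At 11 against 2 dpf cebpa was called higher, by 1.05 (adjusted p = 0.000402). It is named here after its values were seen. No gene of the mural or myeloid lists was at 0 in any library, and 1 red cell gene was at 0 in 1 library each of 2 and 4 dpf. What part the mix of cell types had in the vessel gene values was not tested.

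**Figure D5:**
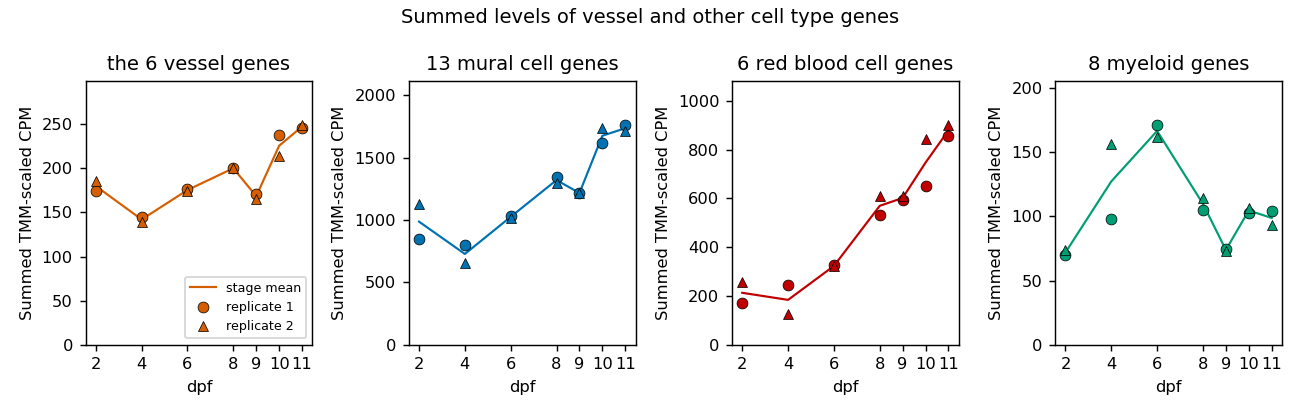
Summed TMM-scaled CPM (vertical axes, starting at 0) of the 6 vessel genes, 13 mural cell genes, 6 red blood cell genes and 8 myeloid genes against age in dpf, with replicates as circles and triangles and stage means joined by a line. The vessel sum is 145 and 139 CPM at 4 dpf and 245 and 249 CPM at 11 dpf.

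The mural list also held single genes with large changes. acta2, smooth muscle actin, had 548 and 527 CPM at 11 dpf, against 156 and 148 CPM at 2 dpf, a log2 difference of 1.82 (SE 0.157, adjusted p = 9.89e-08). tagln, a partner of actin in smooth muscle, differed by 1.99 between those stages (adjusted p = 1.94e-08), and myh11a, smooth muscle myosin, by 1.47 (adjusted p = 0.000418). The list did not rise as a whole between those stages. Of its 13 genes, 7 had a higher mean and 6 a lower one, and 5 were called higher, against 12.6% of all genes. At any size 6 rose and 3 fell. The 3 were cspg4 (-0.71, adjusted p = 0.00975), foxf2a (-0.73, adjusted p = 0.0367) and foxc1b (-0.65, adjusted p = 0.0277), named here after their values were seen. The forkhead genes of vessel-associated mesenchyme foxc1b and foxc1a changed at these steps, foxc1b by -1.57 at 4 against 2 dpf (adjusted p = 0.000157) and foxc1a by 1.77 at 6 against 4 dpf (adjusted p = 0.000131).

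Low oxygen raises VEGF genes in many animals, so 11 genes of the oxygen response were read beside the receptors. None was called at 4 against 2 dpf. egln3 and ldha, targets of the hypoxia-inducible factors, differed by 1.73 (adjusted p = 0.000338) and 1.46 (adjusted p = 1.59e-06) at 11 against 2 dpf, and ca9, another target, by 1.41 at 11 against 6 dpf (adjusted p = 4.01e-05). These did not rise together. ldha averaged 350 CPM at 6 dpf and 300 CPM at 11 dpf. ca9 had its lowest mean at 6 dpf, 9.93 CPM, against 15.8 CPM at 2 dpf. At 11 against 2 dpf ca9 differed by 0.75 (adjusted p = 0.0024), short of the fold threshold. Of 4 rows for the factor genes themselves, 2 fell at 11 against 2 dpf, hif1a by -2.08 (adjusted p = 0.000844) and epas1a by -1.12 (adjusted p = 6.78e-06), with hif1a at 2.07 and 1.57 CPM at 11 dpf, against 5.22 and 10.3 CPM at 2 dpf. The other factor rows had no adjusted p under 0.05 over this interval: hif1ab averaged 107 CPM at 11 dpf and 112 CPM at 2 dpf, and epas1 averaged 34.4 and 33.5 CPM at those stages. Both are named after their values were seen. Of the 11 genes, 2 were called higher, against 12.6% of all genes, and 2 lower, against 8.22%, and raising the filter to 10 counts left 2 of the 4.

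Across the 14 libraries the 6 genes were most alike within the Tie pair, with a Pearson correlation of log2 CPM of 0.857 for tek and tie1, and 0.79 for kdr and flt1. The least alike pair was tie1 and cdh5, at 0.452. These points share libraries and fall into 7 stages. The genes most like the mean standardized profile of the 6 were col6a1 (r = 0.962), col6a2 (0.954) and mmp2 (0.954), which encode chains of collagen VI and a matrix protease, then ehd2 (0.942), col8a1b (0.939), coch (0.933), esyt1b (0.932), ddr2 (0.932), an unnamed row LOC113537845 (0.93) and pkd2 (0.929). Taken singly, tek was most like angptl1 (0.963), an angiopoietin-like gene, then mmp2 (0.953) and kank2 (0.952), and tie1 most like mmp2 (0.941). For kdr the nearest was zgc:92275 (0.934), for flt1 vstm4b (0.95), for flt4 gas2 (0.915) and for cdh5 inka1b (0.937).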

How the data were processed

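Whole tra catfish embryos and larvae were sequenced by the authors after depletion of ribosomal RNA, as paired reads. Per the labels and the study's methods, reads were trimmed with Trimmomatic 0.36, aligned with STAR 2.7.0 to the GENO_Phyp_1.0 assembly and counted per gene with HTSeq. The counting mode and strand setting are not given in the sources used here. The deposited values are raw counts per gene, with 0 columns of other samples. Groups came from the stage in each label.

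Counts were fitted in R 4.3.3 with edgeR 4.0.16 (TMM, filterByExpr, glmQLFit and glmQLFTest, 1 coefficient per stage, all 14 libraries), with Benjamini-Hochberg adjustment over 19310 genes. Calls needed both an adjusted p under 0.05 and a change beyond 1 on the log2 scale. Counts at the adjusted p alone were added after seeing the data. The scripts were tested on simulated data. The SE of a log2 fold change was its size over the root of the F statistic, and a prior count of 2 was added for the log2 CPM of the correlations.

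The members and lists were chosen with earlier results of these data known. Named genes were the members, the list genes called in at least 1 of the 8 comparisons (at most 6 per list, by size of change), the angiopoietins as a short list, kdrl and egfl7, the 10 genes nearest the mean profile and the nearest of each member (3 for tek). Of 11307 rows named by gene ID, 10538 were in the RefSeq table (assembly fPanHyp1.pri, used for names alone) and 6917 had a symbol there. Alternatives were DESeq2 1.42.0, scaling by RLE or by library totals alone, dropping the filter or raising it to 10 counts in every library, a replicate block, only the 4 libraries compared, summed pairs of 6, 9 and 11 dpf, and each library left out. Replicates are libraries of pooled fish, and intervals from counting cover counting error only.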

Additional observations from a re-analysis of the deposited data

How the results depend on the processing

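Of 1056 log2 fold changes of the 6 vessel genes under the alternatives, 1028 kept their direction and side of the thresholds, 3 were weaker, 5 were stronger and 20 turned their sign, each of these from a size of 0.23 or less and none with an adjusted p under 0.05. Of the list genes, 92 called fold changes gave 1857 values that kept their call, 144 that lost it and 0 that turned. Vessel genes called at 4 against 2 dpf were 1 with library totals and 1 with no filter, and 0 to 1 with a library left out. At 6 against 4 dpf they were 0 with DESeq2 and 0 with RLE scaling, and 0 to 1 with a library left out, and at 11 against 2 dpf 0 to 1. Over any stage they were 3 with the pairs of 6, 9 and 11 dpf summed. At the adjusted p alone, library totals gave 4 at 4 against 2 dpf, 0 at 8 against 6, 0 at 10 against 9 and 3 at 11 against 6 dpf. Fitting only the 4 libraries gave 1 at 4 against 2 dpf, 2 at 8 against 6, 2 at 9 against 8, 3 at 10 against 9 and 1 at 11 against 10 dpf. Summed pairs gave 0 at 8 against 6, 0 at 10 against 9 and 0 at 11 against 6 dpf, where fewer samples were tested. With a library left out the counts were 0 to 1 at 8 against 6, 0 to 1 at 9 against 8, 0 to 3 at 10 against 9, 0 to 1 at 11 against 10, 1 to 5 at 11 against 6 and 3 to 5 at 11 against 2 dpf, the highest of these without replicate 2 of 4 dpf. Values that turned with library totals were kdr -0.17 and flt1 -0.23 (4 against 2 dpf), kdr -0.062, flt4 -0.11 and tek -0.048 (8 against 6), tek 0.00221 (9 against 8), tek 0.066 (11 against 10), and tek -0.089 and cdh5 -0.045 (11 against 2). flt1 was -0.000568 with no filter at 4 against 2 dpf, and tek 0.00034 with the filter of 10 counts at 11 against 10 dpf. With a library left out, kdr ranged from -0.018 to 0.18 and flt1 from -0.28 to 0.39 at 4 against 2 dpf, and at 11 against 10 dpf flt4 ranged from -0.16 to 0.27, tek from -0.074 to 0.043 and cdh5 from -0.034 to 0.099. Apart from the scalings and filters, the cause was not tested. The replicate block changed no count for the vessel genes, and the shared numbers did not pair the libraries: over 21 pairs of stages the correlation of deviations was -0.159 to 0.0593. Library totals moved the median of all genes to -0.25 (4 against 2 dpf), -0.26 (8 against 6), -0.13 (11 against 6) and -0.34 (11 against 2), and the share of higher calls from 69.7% to 45.1% at 4 against 2 dpf. Counts of 54 to 497 per library limit what could be detected.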
